A study of Homo sapiens with 6 samples.

Results

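ATF4 and 6 related transcription factors of the basic leucine zipper (bZIP) class were followed across H1299 cells given a scramble shRNA or 1 of 2 shRNAs against RBP2. The 7 genes were ATF4, DDIT3, ATF3, ATF5, CEBPB, CEBPG and JDP2, out of 19775 genes named on the array. They were chosen from earlier results of these same arrays, in which their differences from scramble had already been seen. Their differences from scramble are therefore given as a description with no test, and only the difference between the 2 RBP2 shRNAs was tested for them. The size of that difference does not use the scramble arrays, but its p-value pools the spread within all 3 groups. It is also the gap between the 2 differences already seen, so the choice of genes was not blind to it. All 14 probe sets annotated to the 7 genes were examined, and the brightest of each gene over the 6 arrays carried its main value. All 7 main probe sets passed the filter on low values, a mean log2 value of at least 4, while 5 of the 7 further probe sets lay below it.

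H1299 is a lung cancer cell line. RBP2 is the older name of KDM5A, a demethylase that removes methyl groups from lysine 4 of histone H3. The control group (SC) was infected with lentivirus carrying a scramble shRNA, and the RBP2 KD1 and RBP2 KD2 groups with lentivirus carrying 1 of 2 separate shRNAs to RBP2. All cells were kept in medium with 10% serum and harvested 72 hours after infection, and each group had 2 arrays. All values are log2 expression values as deposited, so a difference of 1 is a 2-fold difference. Whether the 2 arrays of a group came from separate cultures is not said in the labels, and p-values cover only the spread seen between them, possibly a technical one. Only 1 control shRNA was used, and the labels give no shRNA sequence, no selection of infected cells and no share of cells infected.

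A bZIP factor binds DNA as a dimer, through a basic region that reads the DNA and a leucine zipper that pairs the 2 chains. ATF4 is the main effector of the integrated stress response: kinases that sense amino acid shortage, unfolded protein in the endoplasmic reticulum, haem shortage or double-stranded RNA phosphorylate the translation factor eIF2, most protein synthesis slows, and the ATF4 mRNA is translated more. ATF4 then acts on genes of amino acid synthesis, uptake and tRNA charging, often in a dimer with a C/EBP factor at a composite site called the C/EBP-ATF response element (CARE). DDIT3 (also called CHOP), ATF3 and ATF5 are themselves induced during this response. Arrays measure mRNA, so translation of ATF4, the step by which its protein is best known to be controlled, was not measured.

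Promoter sequences show which members carry letters that bZIP dimers are known to read, and 4 of them are printed here for that reason. RefSeq start sites on GRCh38.p14 gave 16 windows for the 7 genes, each from 250 bases before to 50 bases after a start. All 7 genes had at least 1 window. The motifs, searched on both strands, were the CARE core TGATGCAA (TTGCATCA on the other strand), the cyclic AMP response element TGACGTCA, the AP-1 site TGACTCA and the C/EBP palindrome TTGCGCAA. No motif lies within another. They were picked after the promoters had been looked at. Each of the following lines gives 30 bases on the gene's strand, 5′ to 3′, with the motif in capitals.
CEBPG, CARE core, 42 bases before the second of 2 starts, chr19:33374060-33374089, plus strand: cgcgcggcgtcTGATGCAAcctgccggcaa
JDP2, CARE core, 16 bases before the second of 3 starts, chr14:75427995-75428024, plus strand: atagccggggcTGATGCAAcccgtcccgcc
DDIT3, AP-1 site, 241 bases before the first of 2 starts, chr12:57520735-57520764, minus strand: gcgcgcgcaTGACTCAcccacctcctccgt
ATF5, AP-1 site, 188 bases before the first of 3 starts, chr19:49928706-49928735, plus strand: gggagagtgctgTGACTCAtgctggactct

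The CARE core was found in the windows of 2 of the 7 members, CEBPG and JDP2, in those of 1.08% of all genes, and in 0.866% of the 35116 windows. The AP-1 letters were found in DDIT3 and ATF5, in 6.047% of all genes and in 4.949% of all windows. The cyclic AMP response element stood in 1.848% of all windows and the C/EBP palindrome in 0.151%, and neither stood in a member's window. Among established ATF4 targets with a window, 10 of 38 held the CARE core, CHAC1 and the amino acid transporter SLC1A4 among them. A match describes the letters of a window and does not show that a factor binds there.

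The knocked-down gene was checked before the factors. KDM5A stood at 9.35 and 9.42 on the scramble arrays, at 7.42 and 7.27 with KD1 and at 6.66 and 6.72 with KD2. It was thus lowest with KD2, and KD1 exceeded KD2 by 0.65 on the log2 scale (limma adjusted p = 0.010). The median of tested genes was 8.49 to 8.56 on every array. Among markers, KRT8 (9.80 to 10.69), KRT18 (12.76 to 13.22) and VIM (14.89 to 15.04) were high on all arrays, and KRT8 was called higher with knockdown (mean difference 0.56, limma adjusted p = 0.044), while KRT19 and EPCAM lay at or near the lowest values. Of the lung lineage markers SFTPB read 4.96 to 5.17, while NKX2-1, SFTPC and SCGB1A1 and the markers of blood and endothelium lay between the lowest value of the table, 2.24, and 2.82. COL1A1, a fibroblast collagen, read 6.20 to 7.02 with no call (limma adjusted p = 0.17), while the fibroblast genes COL3A1 and DCN stayed at or near the lowest value. Both RBP2 comparisons use the same 2 scramble arrays, so a shift on those arrays enters both.

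ATF4 mRNA was lower with each RBP2 shRNA, and more so with KD2. Its single probe set, 200779_at, read 12.73 and 12.77 with scramble, 12.12 and 12.15 with KD1, and 11.33 and 11.45 with KD2. The 3 groups did not overlap, and the replicates of a group lay closer together than any pair of groups. The difference from scramble was -0.62 with KD1, a 1.54-fold lower level, and -1.36 with KD2, a 2.57-fold lower level.

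DDIT3 encodes a C/EBP-like factor that is switched on downstream of ATF4 and takes part in stress-induced cell death. Its probe set read 10.06 and 10.89 with scramble, 9.48 and 9.08 with KD1, and 8.46 and 8.37 with KD2. The groups again did not overlap, and the scramble arrays were farthest apart, with an SD of 0.58. The difference from scramble was -1.19 with KD1 and -2.06 with KD2, which are 2.29-fold and 4.16-fold lower levels. The KD1 value depended on the control: it was -1.61 without scramble replicate 1 and -0.78 without scramble replicate 2.

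ATF3, a stress-induced factor that can repress or activate its targets, had the least reproducible values of the 7. Probe set 202672_s_at read 6.45 and 6.14 with scramble, 6.28 and 4.13 with KD1, and 5.67 and 4.24 with KD2. KD1 replicate 1 lay between the scramble arrays, so KD1 and scramble overlapped, whereas both KD2 arrays were below both scramble arrays. The difference from scramble was -1.09 with KD1 and -1.34 with KD2, and within-group SDs reached 1.52. Leaving out KD1 replicate 2 brought the KD1 difference to -0.02, and leaving out KD1 replicate 1 brought it to -2.17. The KD2 difference was -0.63 without KD2 replicate 2 and -2.06 without KD2 replicate 1. Within replicate number 1 the differences were -0.17 and -0.78, and within number 2 they were -2.01 and -1.90. The other ATF3 probe sets, 1554980_a_at and 1554420_at, stayed between 2.24 and 2.39 on all arrays and carry no information on a change.

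ATF5, whose mRNA is under the same kind of translational control as ATF4, was the only member that lay on opposite sides of scramble with the 2 shRNAs. Probe set 204998_s_at read 7.95 and 7.75 with scramble, 8.59 and 8.79 with KD1, and 6.16 and 6.06 with KD2. Both KD1 arrays were above both scramble arrays and both KD2 arrays were below them. The level was 1.79-fold higher with KD1 (a difference of 0.84) and 3.34-fold lower with KD2 (-1.74). A second probe set, 204999_s_at, read 6.05 and 6.0, then 6.67 and 6.84, then 4.63 and 4.55 in the same order of groups. It therefore showed the same directions, with differences of 0.73 and -1.43. The remaining ATF5 probe sets, 230938_x_at and 217389_s_at, were dim and flat, at 3.95 to 3.97 and 3.61 to 3.63. Of all tested genes, 7.24% had both KD1 arrays above and both KD2 arrays below the scramble arrays.

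CEBPB and CEBPG are C/EBP factors that pair with ATF4. CEBPB, known for its part in inflammation and differentiation, read 10.89 and 11.26 with scramble, 9.28 and 9.35 with KD1, and 9.59 and 9.50 with KD2. The scramble arrays stood clear of the other 4, and the 2 RBP2 shRNAs gave differences of similar size: -1.76 with KD1 (3.38-fold lower) and -1.53 with KD2 (2.88-fold lower).

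CEBPG, a short C/EBP factor that lacks an activating domain of its own and serves as a dimer partner, depended on the probe set. The brighter one, 225527_at, read 10.64 and 11.005 with scramble, 9.36 and 9.55 with KD1, and 10.44 and 10.50 with KD2. KD1 was lower by 2.58-fold (-1.37), while KD2 lay only 1.28-fold below scramble (-0.35), with a value of -0.53 without scramble replicate 1 and -0.17 without scramble replicate 2. The other, 204203_at, read 10.42 and 10.29 with scramble, 9.49 and 9.02 with KD1, and 9.59 and 9.18 with KD2. By that probe set the 2 shRNAs gave nearly the same difference, -1.10 and -0.97, and their arrays overlapped. Both probe sets placed all 4 knockdown arrays below both scramble arrays, with the narrowest gap between KD2 at 10.50 and scramble at 10.64 on the brighter one.

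JDP2, a factor that pairs with JUN proteins and represses AP-1 targets, had the largest differences of the 7. Probe set 226267_at read 9.06 and 8.85 with scramble, 6.41 and 6.63 with KD1, and 6.05 and 5.65 with KD2. All 3 groups were separate. The level was 5.42-fold lower with KD1 (-2.44) and 8.61-fold lower with KD2 (-3.11). The second probe set, 239085_at, stayed at 2.28 to 2.33 and carries no information on a change.

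**Figure D1:**
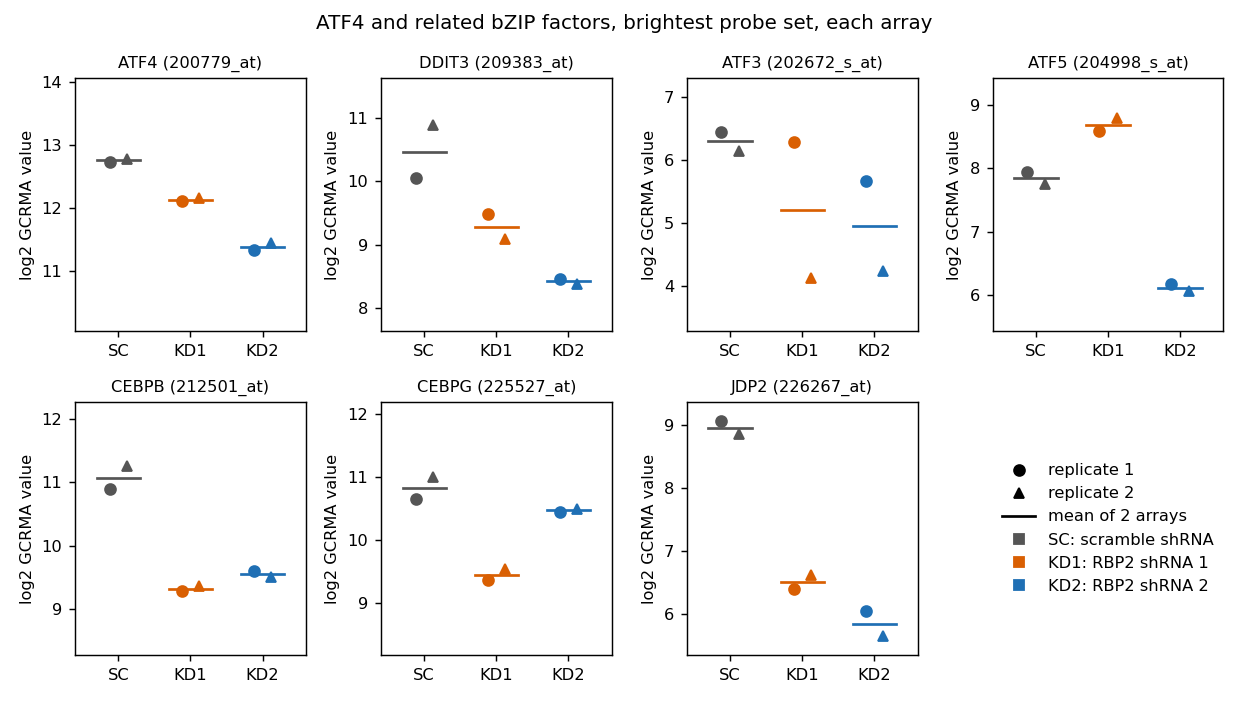
Log2 expression of the main probe set of each of the 7 genes on each of the 6 arrays; circles and triangles are replicates 1 and 2, horizontal bars are group means, each vertical axis spans the same number of log2 units, and the groups are scramble (SC), KD1 and KD2. ATF4, DDIT3 and JDP2 step down from SC to KD1 to KD2, ATF5 rises to 8.79 with KD1 and falls to 6.06 with KD2, and the 2 ATF3 arrays of KD1 lie at 6.28 and 4.13.

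Counted over the 7, 5 members had all 4 knockdown arrays below both scramble arrays, where 9.03% of all tested genes did. With KD1 alone 5 of 7 lay below scramble (27.4% of all tested genes), and with KD2 alone 7 of 7 did (29.8%). The exceptions with KD1 were ATF3 and ATF5. These counts were part of how the genes were chosen, and nothing is read from them. The median difference of the members was -1.19 with KD1 and -1.53 with KD2.

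**Figure D2:**
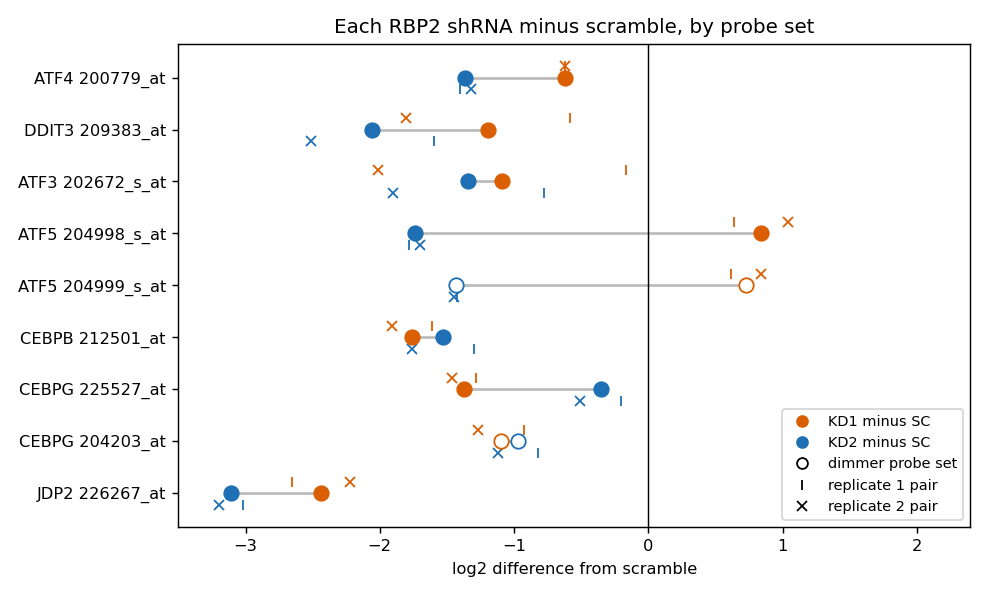
Difference from scramble on the log2 scale for the 9 informative probe sets of the 7 genes; circles are means for KD1 and KD2, open where the probe set is the dimmer one of its gene, and bars and crosses are the differences within replicate number 1 and number 2. The line joining KD1 and KD2 crosses 0 only for ATF5, and CEBPG has a wide gap on 225527_at and nearly none on 204203_at.

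The question whether the 2 shRNAs acted alike on these factors was tested with limma, on KD1 minus KD2. Of the 7 members 4 differed at an adjusted p under 0.05: ATF4, ATF5, CEBPG and JDP2. Over all tested genes 41.1% differed, so a difference between the shRNAs was common in the whole table. The KD1 and KD2 arrays did not overlap for 6 of 7 members, where 72.8% of all tested genes did not overlap.

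ATF5 had the widest gap of the 7. Its level with KD1 was 5.97-fold that with KD2, a difference of 2.58 ± 0.14 (SE, n = 2 arrays a group; limma adjusted p = 0.0011, 95% interval 2.23 to 2.93). The second ATF5 probe set gave 4.48-fold. ATF4 was higher with KD1 than with KD2 by 0.74 ± 0.11 (limma adjusted p = 0.0059, interval 0.47 to 1.02). The call of ATF4 was kept in all 16 alternatives run (limma adjusted p from 0.0026 to 0.042). That of ATF5 was kept in every alternative that gave it a value (0.00051 to 0.020).

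CEBPG went the other way, lower with KD1 by 1.02 on the log2 scale (a difference of -1.02 ± 0.16, 2.02-fold, limma adjusted p = 0.008). The adjusted p rose to 0.057 without KD2 replicate 1 and likewise without KD2 replicate 2, and the dimmer CEBPG probe set gave a difference of -0.13. JDP2 was higher with KD1 by 0.67 ± 0.18 (limma adjusted p = 0.040, interval 0.19 to 1.14), 1.59-fold. Its call was kept in 7 of the 16 alternatives run and lost in 9, some of which kept all arrays. That call was the least secure: it was lost whichever array was left out, with limma adjusted p-values from 0.057 to 0.15.

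For the other 3 members no difference between the shRNAs passed the threshold. DDIT3 was higher with KD1 by 0.86 ± 0.30 (limma adjusted p = 0.077, interval 0.08 to 1.64), and it passed, at 0.033, without scramble replicate 1 or without scramble replicate 2. CEBPB differed by -0.23 ± 0.16 (limma adjusted p = 0.29) and an interval of -0.63 to 0.17. ATF3 differed by 0.25 ± 0.82 (limma adjusted p = 0.83), and its interval was wide, from -1.85 to 2.35.

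The profiles of the members over the 6 arrays were compared pair by pair. Likeness was measured as the root mean square difference of the log2 values after each gene was set to its own mean. The closest pairs were ATF4 with DDIT3 (0.403), DDIT3 with CEBPB (0.485) and CEBPB with CEBPG (0.491), and the farthest was ATF5 with CEBPG (1.49). Outside the members, the tested genes nearest to ATF4 were HEATR5A (0.066), GOLT1B (0.0733) and HIPK3 (0.085), and 2151 genes lay within 0.5 of it. The values of ATF4 span only 1.45, so 0.5 is a loose limit for it. The count therefore does not show how common its stepwise profile is. Nearest to DDIT3 were ANTXR2 (0.215), TTPAL (0.240) and BLID (0.247), with 139 genes within 0.5. Nearest to CEBPB were SGPL1 (0.105), MDFIC (0.177) and ELF4 (0.213), with 197 within 0.5. For JDP2, whose values span 3.41, 13 genes lay within 0.5. The nearest were the cystine transporter gene SLC7A11 (0.134), KDM5A itself (0.270) and SERINC5 (0.346). This measure favours genes of like range, does not separate size of change from shape, and rests on 6 arrays.

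The rest of the bZIP family had calls in both directions. Of 47 further family genes listed, 4 were not analysed here, 13 lay below the filter on low values and 30 were tested. For the mean of both shRNAs against scramble 1 was called higher and 4 lower by limma, where 5.61% of all tested genes were called higher and 6.92% lower. Their median difference was -0.12, beside 0.02 for all tested genes. With the replicate number as a block 9 were called, 3 higher and 6 lower, where 1828 and 1842 of all 10526 tested genes were. Without KD1 replicate 1 there were still 5 calls, and without any other 1 of the arrays there were 0, with 6 to 10 at an unadjusted limma p under 0.05.

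XBP1, the factor of the unfolded protein response that is spliced by IRE1, fell with both shRNAs. It read 8.01 and 7.86 with scramble, 6.92 and 6.46 with KD1, and 6.94 and 6.68 with KD2. The mean difference was -1.19 ± 0.17 (limma adjusted p = 0.022). CREB3L4, a membrane-bound relative, also fell with both shRNAs, by 0.99 with KD1 and 1.34 with KD2 (mean difference -1.17, limma adjusted p = 0.021). MAFF, a small MAF protein that pairs with the NRF factors, read 9.92 and 9.65 with scramble, 8.42 and 7.19 with KD1, and 8.33 and 7.67 with KD2. Its mean difference was -1.88 ± 0.40 (limma adjusted p = 0.044).

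The other 2 calls came from KD2. NFE2L3, an NRF factor, had a mean difference of -1.19 (limma adjusted p = 0.033) made of -0.09 with KD1 and -2.29 with KD2. CREM, a factor of cyclic AMP signalling, had a mean difference of 0.95 (limma adjusted p = 0.019) made of 0.04 with KD1 and 1.85 with KD2. For these the shRNAs differed by test, with limma adjusted p-values for KD1 minus KD2 of 0.0032 for NFE2L3 and 0.0015 for CREM.

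Taken singly against scramble, KD1 had 22 of the 30 differences below 0, where 5190 of all 10526 tested genes were. With KD1 0 of the 30 genes were called higher and 4 lower, where 3.62% and 7.9% of all tested genes were called. At an unadjusted limma p under 0.05 were 10 of the 30, beside 3106 of all 10526 tested genes. KD2 had 3 called higher and 5 lower, where the shares over all tested genes were 16.7% and 14.4%. Blocked on the replicate number, 4 were called higher and 8 lower with KD1, where 1348 and 1769 of all 10526 tested genes were. With KD2 the block gave 7 higher and 10 lower, where 2986 and 2338 of all tested genes were called. Leaving out 1 array gave 0 calls with KD1 in each case and 2 to 8 with KD2.

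Some dimer partners of the members were named for their role after their values had been seen. CEBPD, a C/EBP factor of the acute phase response, read 8.28 and 8.23 with scramble, 7.31 and 7.36 with KD1, and 9.19 and 8.80 with KD2. It fell with KD1 (-0.92, limma adjusted p = 0.030) and rose with KD2 (0.74, limma adjusted p = 0.024), the reverse of ATF5. JUN, a partner of both ATF3 and JDP2, read 9.56 and 9.16 with scramble, 8.74 and 7.53 with KD1, and 10.26 and 9.56 with KD2. Neither difference of JUN from scramble passed without the replicate block, and with it that of KD1 did (-1.22, limma adjusted p = 0.16 without and 0.019 with the block). KD1 was below KD2 by test (-1.77, limma adjusted p = 0.034). FOSL1, a FOS family member, had a mean difference of -1.74 that did not pass (limma adjusted p = 0.098) and passed with the replicate block (0.0061). JUND had a mean difference of 0.91 (limma adjusted p = 0.14, and 0.010 with the block). NFE2L2, the oxidative stress factor NRF2, read 0.43 above scramble with KD1 and 0.38 below it with KD2. Neither passed (limma adjusted p = 0.077 and 0.061), both passed with the replicate block (0.031 and 0.026), and the 2 shRNAs differed by 0.81 (limma adjusted p = 0.0058). FOS and FOSB lay below the filter.

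**Figure D3:**
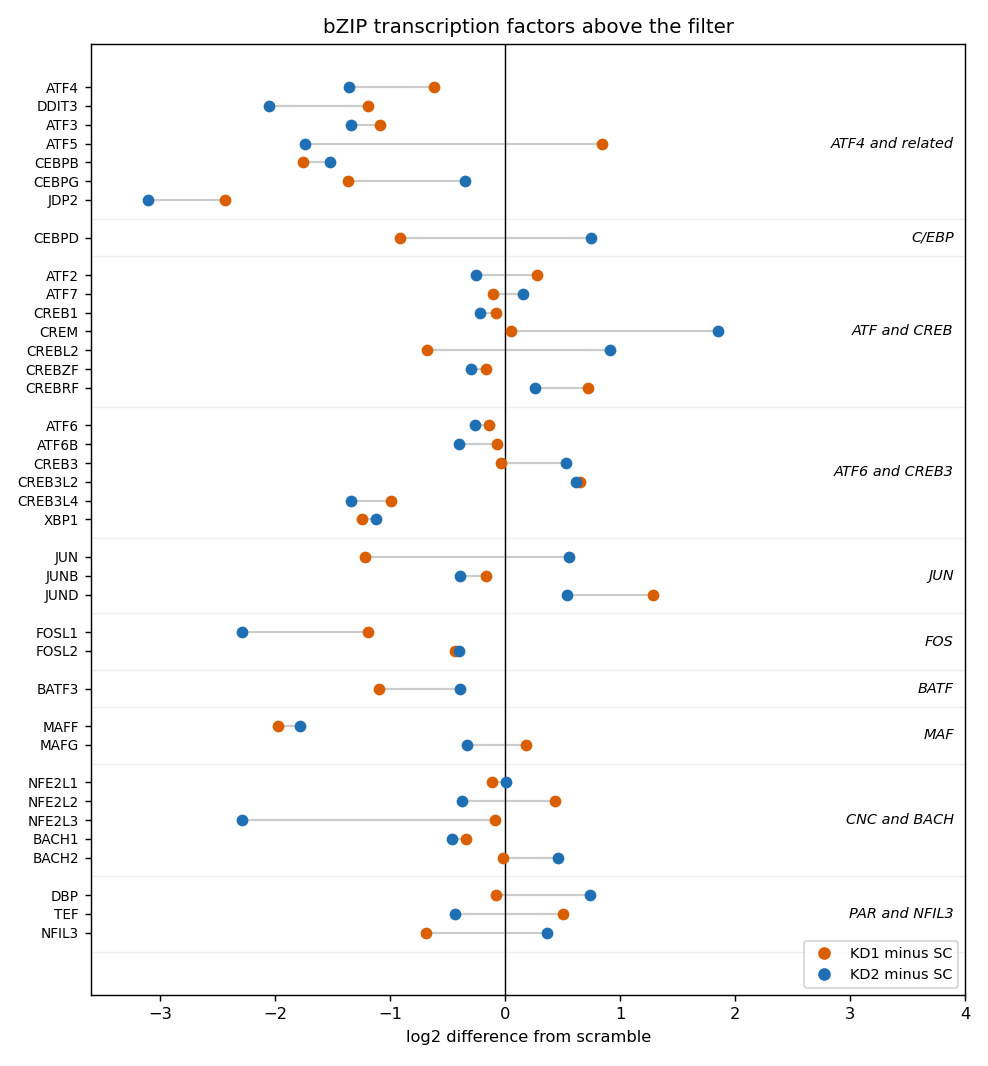
Difference from scramble in log2 units with KD1 and with KD2 (points, joined by a line) for the 7 members and the 30 other tested bZIP genes, ordered by subfamily. ATF5 has KD1 at 0.84 and KD2 at -1.74, CEBPD the reverse order (-0.92 and 0.74), and XBP1, CREB3L4 and MAFF have both points to the left of 0.

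Genes that act upstream of ATF4, on eIF2 or on the stability of ATF4, had calls in both directions. Of 28 listed, 2 (EGLN3 and TRIB2) lay below the filter and 26 were tested. For the mean of both shRNAs 2 were called higher and 3 lower by limma, where 5.61% and 6.92% of all tested genes were. The median difference was -0.08, beside 0.02 for all tested genes; with the replicate block 2 were called higher and 7 lower, and leaving out any 1 array left 0, with 6 to 9 at an unadjusted limma p under 0.05. Singly, KD1 had 1 gene called higher and 4 lower (3.62% and 7.9% of all tested genes), and KD2 had 4 and 4 (16.7% and 14.4%). With the replicate block the counts were 2 and 9, and 7 and 7. Over all 10526 tested genes that fit called 1828 higher and 1842 lower for the mean. Its whole-table counts were 1348 and 1769 with KD1, and 2986 and 2338 with KD2. The eIF2 kinases, named for their role, gave mean differences of -0.11 for EIF2AK1, 0.19 for EIF2AK2, -0.35 for EIF2AK3 and 0.28 for EIF2AK4, and none passed. A mean can cover opposite differences. EIF2AK1 had 0.20 with KD1 and -0.42 with KD2 (limma adjusted p = 0.37 and 0.057, and 0.19 and 0.022 with the block). TRIB1 had -1.30 and 1.31 (limma adjusted p = 0.011 and 0.0049).

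TRIB3, an inhibitor of ATF4 that ATF4 itself induces, was the one gene of this list called lower with each shRNA. With the replicate block EIF2B3, EIF2S2, IMPACT and PPP1R15A were called lower with each as well. It read 9.23 and 10.91 with scramble, 6.99 and 7.21 with KD1, and 7.24 and 7.10 with KD2. The mean difference was -2.93 ± 0.47 (limma adjusted p = 0.026), with the spread lying between the scramble arrays (SD 1.19). EIF2B4, a subunit of the exchange factor that reloads eIF2, was higher with both, with a mean difference of 0.55 (limma adjusted p = 0.027). PPP1CC, a catalytic subunit of the phosphatase that acts on eIF2, rose by 0.62 (limma adjusted p = 0.030). EIF2S2, the beta subunit of eIF2, had a mean difference of -0.57 (limma adjusted p = 0.035). OMA1, the mitochondrial protease that relays stress to ATF4, had one of -0.50 (limma adjusted p = 0.032). That of OMA1 was made of -0.80 with KD1 (limma adjusted p = 0.017) and -0.20 with KD2 (limma adjusted p = 0.19). EIF2S2 is named beside the rule because it completes the 5 calls.

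Established ATF4 target genes were mostly lower. Of 51 listed, 2 were not analysed here, 6 lay below the filter and 43 were tested. For the mean of both shRNAs 28 of 43 were called lower and 0 higher by limma, where 6.92% of all tested genes were called lower, and 38 of 43 were at an unadjusted p under 0.05. The median difference was -0.95, and 41 of 43 differences were below 0. Over all 10526 tested genes 3475 were at an unadjusted limma p under 0.05 and 5037 differences were below 0. The fall of this list was already known when the 7 factors were picked, so it is not independent evidence. With KD1 24 were called lower (7.9% of all tested genes) and 1 higher, the autophagy receptor SQSTM1. With KD2 32 were called lower (14.4% of all tested genes) and 1 higher, the proline synthesis enzyme ALDH18A1. With the replicate block 36 were called lower for the mean, 32 with KD1 and 34 with KD2. Over all 10526 tested genes that fit called 1842, 1769 and 2338 lower. Of the ATF4 targets it called 0, 1 and 2 higher. Without the block the calls of 20 genes were lower with each shRNA. Without KD1 replicate 1 there were 18 calls for the mean of both shRNAs, without KD1 replicate 2 there was 1, and without any 1 of the other 4 arrays there were 0, with 32 to 36 at an unadjusted p under 0.05 in all of these fits.

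By role, genes of amino acid synthesis had 10 of 12 called lower, with a median difference of -1.33. Amino acid transporters had 5 of 7, with a median of -1.48. Genes of tRNA charging and export had 8 of 12 with a smaller median of -0.52, and genes of signalling and stress had 5 of 12 with a median of -1.18. With the replicate block the counts in this order were 10 of 12, 5 of 7, 12 of 12 and 9 of 12.

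SLC7A11, the cystine importer, read 9.97 and 9.90 with scramble, 7.61 and 7.93 with KD1, and 7.06 and 6.84 with KD2, a mean difference of -2.57 ± 0.14 (limma adjusted p = 0.0069). CHAC1, which degrades glutathione, read 7.32 and 7.47 with scramble, 5.56 and 5.53 with KD1, and 4.15 and 4.52 with KD2, a mean difference of -2.45 ± 0.14 (limma adjusted p = 0.0070). Both stood lower with KD2 than with KD1 (limma adjusted p for KD1 minus KD2 of 0.014 for SLC7A11 and 0.0048 for CHAC1). Over the whole list, 10 of 43 were called higher and 5 lower with KD1 in that comparison, with a median of 0.07. Over all 10526 tested genes 1872 were called higher and 2455 lower (41.1% in either direction), with a median of -0.06. With the replicate block 12 of the list were called higher and 7 lower, where 2638 and 3433 of all tested genes were. SESN2, an inhibitor of mTOR signalling, read 7.69 and 7.78 with scramble and 5.52 to 5.65 on the 4 knockdown arrays. Its mean difference was -2.15 (limma adjusted p = 0.0055), and 2 of those arrays shared its lowest value. SHMT2, the mitochondrial serine hydroxymethyltransferase, had a mean difference of -1.58 ± 0.11 (limma adjusted p = 0.010).

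**Figure D4:**
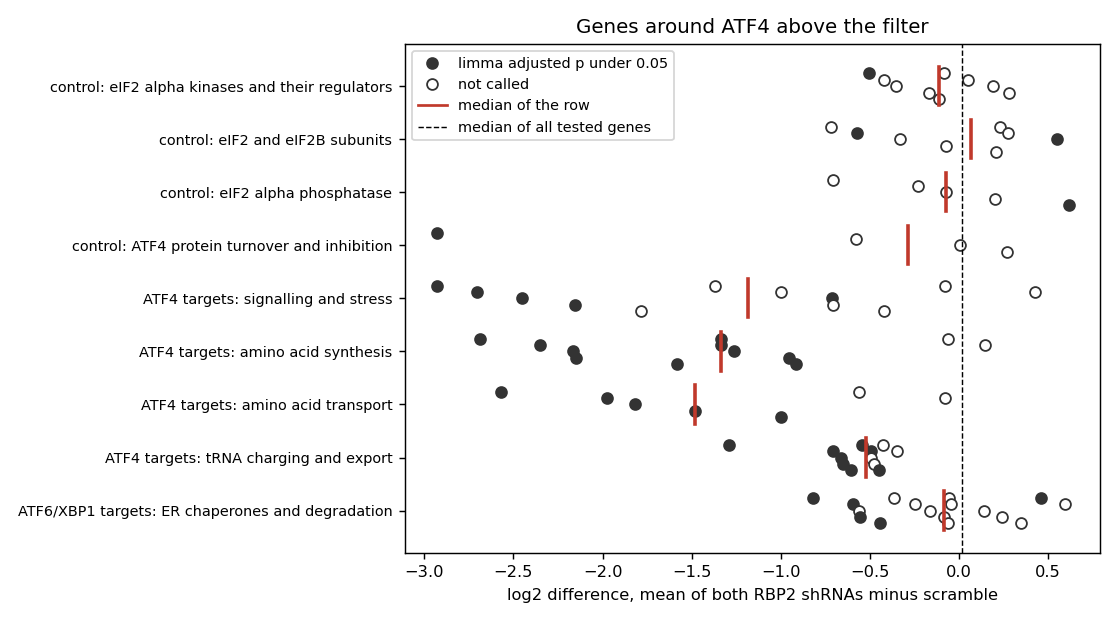
Difference of the mean of both shRNAs from scramble (log2) for every tested gene of the lists of ATF4 control, ATF4 targets and ATF6 and XBP1 targets, 1 point a gene in rows by role; filled points passed limma's test, red bars are row medians and the dashed line is the median of all tested genes (0.02). The ATF4 target rows have medians from -1.48 to -0.52, and the ATF6 and XBP1 row has -0.08; TRIB3, PPP1R15A and DNAJC3 each stand in 2 lists.

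Targets of ATF6 and XBP1, the bZIP factors of the unfolded protein response, had more calls lower than higher. Of 18 listed, 1 was not analysed here and 17 were tested. For the mean of both shRNAs 4 were called lower and 1 higher by limma, where 6.92% and 5.61% of all tested genes were. The median difference was -0.08 and 12 of 17 lay below 0; the replicate block gave 5 lower and 3 higher, and leaving out any 1 array left 0, with 6 to 8 at an unadjusted limma p under 0.05. Over all 10526 tested genes 5037 mean differences lay below 0, and the replicate block called 1842 lower and 1828 higher. HERPUD1, which aids the degradation of misfolded protein, had a mean difference of -0.82 ± 0.12 (limma adjusted p = 0.023). The chaperones HSP90B1 (-0.55, limma adjusted p = 0.025) and HYOU1 (-0.59, limma adjusted p = 0.044) were lower, and the cochaperone DNAJB9 was higher (0.46, limma adjusted p = 0.042). The mean of HYOU1 was made of -0.20 with KD1 (limma adjusted p = 0.43) and -0.99 with KD2 (limma adjusted p = 0.0098). HSPA5, the main chaperone of the endoplasmic reticulum, differed by -0.25 and did not pass (limma adjusted p = 0.32).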

How the data were processed

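RNA of 6 H1299 samples was measured on Affymetrix arrays from 250 ng of total RNA, per the labels' protocols. Judging by their range, the authors deposited log2 values, and GCRMA is the method named in the submitters' processing notes, with no version. This method takes the sequence of each probe into account for its background, puts the arrays on one scale and joins the probes into 1 value a probe set, and it holds dim probe sets near a floor. On each array 37.7% to 38.7% of values equalled the lowest one, 2.24. For 335 tested genes at least 2 arrays were tied at the gene's own minimum. A level of one probe set was not set against that of another. No 2 arrays were identical (0 pairs).

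Of 54675 probe sets, 62 were controls, 41091 carried 1 gene symbol in the platform annotation, 1801 several and 11721 none. Gene identifiers matched RefSeq for 41037, and 0 symbols changed. Each of 19775 genes was represented by its brightest probe set. The filter, a mean log2 value of at least 4, left 10526 genes and set aside 9249. Groups were compared two-sided with limma 3.58.1 in R 4.3.3, in one model over 6 arrays with 3 residual and 2.09 prior degrees of freedom, and Benjamini-Hochberg adjustment over all tested genes at 0.05. Precision is limited by having 6 arrays, and the median SE over tested genes was 0.14 for the combined contrast and 0.17 for each of the others. The script was tested on simulated data.

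Groups and replicate numbers come from the labels. Same-numbered samples deviated together from their group means (correlation over genes 0.75 for SC and KD1, 0.51 for SC and KD2, 0.53 for KD1 and KD2), so the numbers pair the samples, as a property seen in the data. A fit with the replicate number as a block is given beside the list counts and the named calls that it changed. It is not given for the promoter motif counts or for the ATF4 targets called lower with each shRNA.

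The 7 members and all lists were chosen with earlier results of these data known. Named were all members, KDM5A, from each list up to 4 called genes with the smallest adjusted p, up to 12 further bZIP genes called with the same sign for each shRNA, and the 3 genes nearest in profile to ATF4, DDIT3, CEBPB and JDP2. Other names were chosen after their values were seen. Alternatives covered the filter, normalization, probe set rule, model, block and leaving out each array. Promoter windows are those of RefSeq on GRCh38.p14.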

Additional observations from a re-analysis of the deposited data

Results flagged for a closer look

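The effect of KD1 and that of KD2 against the same scramble arrays differed by limma's test of the difference itself for 4 of the 7 members. KD1 minus KD2 was 0.74 on the log2 scale for ATF4, 2.58 for ATF5, -1.02 for CEBPG and 0.67 for JDP2. For ATF4, ATF5 and JDP2 the level was higher with KD1 in each of the 2 same-numbered pairs of arrays, and for CEBPG it was lower in each. The 4 were not equally firm. The dimmer CEBPG probe set gave -0.13 with overlapping arrays, and the JDP2 call was kept in 7 of 16 alternatives. KDM5A itself was 0.65 higher with KD1, and its part in these differences was not tested. With 41.1% of all tested genes called in the same comparison, such a difference was no rarity on these arrays.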

How the results depend on the processing

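Of 324 values of single members under alternatives, 289 counted as unchanged. For a difference from scramble this meant the same sign and a move smaller than the spread between replicates. Several alternatives could not move such a difference, only its SE. They were the block, the filters, the other model settings and leaving out an array of the other shRNA. The 289 include these values, so they do not measure how firm the differences are. For KD1 minus KD2 unchanged meant the same side of the threshold, even where an uncalled value changed sign. That happened for ATF3, which ran from -0.82 to 1.32. A further 21 values moved more, 11 fell short of the threshold, 3 newly passed it and 0 changed sign while called. The number of members lower on all 4 knockdown arrays was 5 in every alternative that kept all arrays and 5 to 6 when 1 array was left out. The quantile and array-median alternatives were not run for it. Members that differed between the shRNAs numbered 3 to 4 with all arrays, and 2 to 4 with 1 left out.

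With the replicate block, calls over the whole table rose from 1318 to 3670 for the mean of both shRNAs, from 1213 to 3117 for KD1 and from 3264 to 5324 for KD2. In that fit the other bZIP genes had 9, 12 and 17 calls in the same order, and the genes of ATF4 control 9, 11 and 14. The ATF4 targets had 36, 33 and 36, and the ATF6 and XBP1 targets 8 for the mean. The block changed the call of no member between the shRNAs.

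Without a filter there were 332, 311 and 1470 calls over the table, 1, 0 and 5 for other bZIP genes, 2, 2 and 4 for ATF4 control, 8, 7 and 20 for ATF4 targets, and 1, 2 and 2 for ATF6 and XBP1 targets. Fitting only KD1 and scramble left 191 calls over the table with 2716 at an unadjusted limma p under 0.05, 0 for other bZIP genes, 1 for ATF4 control, 6 for ATF4 targets and 0 for ATF6 and XBP1 targets. Without probe sets ending in x_at or s_at, other bZIP genes had 3, 2 and 5 calls, ATF4 targets 17, 15 and 21, and ATF6 and XBP1 targets 0 for the mean and 2 for KD1; ATF3 and ATF5 then gave no value, and the number of genes differed. With the mean of all probe sets, KD1 calls were 2 for other bZIP genes and 3 for ATF6 and XBP1 targets. The causes were not tested.

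Leaving out 1 array gave 0 to 457 calls over the table for the mean, 0 to 191 for KD1 and 624 to 2928 for KD2, with 2247 to 3451, 2306 to 2716 and 3338 to 4606 at an unadjusted limma p under 0.05. ATF4 targets had 0 to 18, 0 to 7 and 10 to 32, other bZIP genes 0 to 5, 0 and 2 to 8, ATF4 control 0, 0 to 1 and 1 to 7, and ATF6 and XBP1 targets 0, 0 and 0 to 4. A group left with 1 array was assumed to vary like the others. With 2 arrays a group, small differences of dim probe sets, ATF3 above all, were not detectable.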

Other observations

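Outside the members and the ATF4 targets, 54 tested genes had the CARE core in a promoter window. For the mean of both shRNAs 5 of them (9.26%) were called lower by limma and 3 (5.56%) higher. Over the 8733 tested genes with a window the shares were 6.95% lower and 5.6% higher. The median difference of the 54 was -0.08 beside 0.02. The 5 were BCAT1, the branched-chain amino acid transaminase, GOT1, the aspartate transaminase, HERPUD1, SUN3 and ZNF75A, named after their values were seen. With KD1 10 of the 54 (18.52%) were called lower and 0 higher, beside 8.0% and 3.61% of the tested genes with a window. With KD2 8 (14.81%) were called lower and 10 (18.52%) higher, beside 14.68% and 16.84%, so the KD2 shares were near those of all such genes. ATF4 targets with the motif had a median of -0.55 over 8 genes and those without it -1.14 over 26. Those with it included the tRNA synthetase genes AARS1, CARS1, IARS1, NARS1 and TARS1. Genes of tRNA charging and export had a median of -0.52, a value that pools those with and without the motif. Motif and role were not separated. These are descriptions with no test of the sets.

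Replicate 1 exceeded replicate 2 by over 0.25 on the log2 scale in all 3 groups for 6 of the 37 tested bZIP genes (16.2%), beside 6.81% of all tested genes. They were ATF3, ATF7, JUN, FOSL1, BATF3 and MAFF. The excess was 0.30 with scramble, 2.15 with KD1 and 1.43 with KD2 for ATF3, and 0.69, 1.42 and 1.21 for FOSL1. JUND, DBP and ATF6 ran the other way in all 3 groups, with JUND at -0.89, -0.74 and -0.42. What differed between the numbered sets of samples is not given in the labels.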
